A study of Citrus maxima with 12 samples.

Results

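Yellow spot disease was examined in fruit of Jinlan, a cultivar of pomelo (Citrus maxima, the large-fruited ancestor of several other citrus crops). The comparison took every library labelled Jinlan, 6 of the 12 in the study. It set 3 libraries of diseased Jinlan fruit against 3 libraries of control Jinlan fruit. The other 6 libraries were diseased and control fruit of the cultivar Jinsha, 3 of each, and are used here only where a test of a difference between cultivars is given. Per the labels, fruit RNA was isolated on Qiagen columns, and mRNA libraries were prepared with a SMARTER kit. The labels do not give the age or part of the fruit, the pathogen, how the disease arose or whether replicates came from separate fruits or trees. P-values therefore measure only the spread between these libraries, which may be technical.

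Plants that meet a pathogen or a damaged tissue commonly change the expression of a large share of their genes. Transcripts for defence proteins and for phenylpropanoid enzymes, which lead to lignin and flavonoids, often rise, and transcripts tied to growth and photosynthesis often fall. Citrus fruit is rich in flavonoids made through this route. The deposited table gives gene identifiers without names or products, and 0 of them were matched to a name, so it could not be seen which of these groups changed. No marker of fruit tissue could be looked up either. At most 2 identifiers that rose and 2 that fell are named, and all other genes are described by counts and levels.

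Expression was given as FPKM, a fragment count corrected for the length of the transcript and the mapped total of its library, which is a level relative to the rest of that library. Of 32863 identifiers, 8384 were listed at 0 in all 6 Jinlan libraries and 16579 reached 1 FPKM in at least 3 of the 6. These 16579 genes were tested, and another 7900 were above 0 but under this limit. Between 16257 and 16378 genes reached 1 FPKM in each library. The sequencing depth is unknown, since the table holds no counts. Fruit was measured in bulk, so fewer cells of a type and less RNA per cell cannot be told apart.

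Diseased and control libraries of Jinlan fruit stood well apart, and both replicates numbered 3 lay towards the opposite group. Between a diseased and a control library, 951 to 1872 genes differed at least 2-fold on the log2(FPKM + 1) scale. Within a group the number was 29 to 65 among diseased libraries and 43 to 67 among control libraries. The lowest number between groups, 951, was between disease replicate 3 and control replicate 3. Among these 6 libraries 87.4% of the variance fell on the first principal component. On it diseased replicates 1, 2 and 3 were at 41.0, 40.2 and 33.0, and control replicates 1, 2 and 3 were at -41.1, -44.5 and -28.5. Control replicate 3 was thus the control library nearest to diseased fruit. The main counts below are given with and without it, and other results with all 6 Jinlan libraries unless stated. The spread within groups was otherwise alike: the median SD per gene on the log2 scale was 0.0828 in diseased fruit and 0.0868 in control fruit (n = 3 each).

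**Figure D1:**
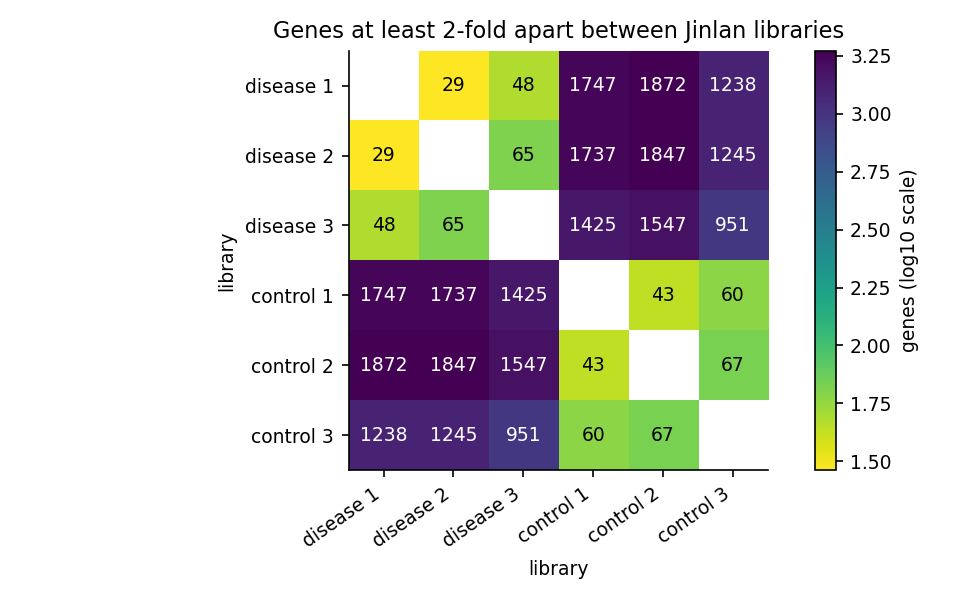
Number of genes at least 2-fold apart on the log2(FPKM + 1) scale between each pair of Jinlan libraries, among 16579 tested genes, with the colour on a log10 scale. Pairs within a group differ at 29 to 67 genes and pairs between groups at 951 to 1872, with the columns of control replicate 3 lower than those of control replicates 1 and 2 against every diseased library.

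Disease in Jinlan fruit was accompanied by changes in most tested genes, and most of these changes were small. At an adjusted p below 0.05 (limma, Benjamini-Hochberg), 5211 genes rose in diseased fruit (31.4% of those tested) and 4959 fell (29.9%), together 61.3%. Of the genes called higher, 63.5% changed by less than 1.5-fold, and of those called lower 66.4% did. Without control replicate 3 these shares were 58.3% and 62.2%. Changes of at least 2-fold were called for 757 genes that rose (4.57% of those tested) and 668 that fell (4.03%). At 2-fold all 757 rising genes and 667 of the 668 falling genes had no overlap between the 3 diseased and the 3 control libraries. Among all tested genes 68.4% were free of overlap, 35.1% with diseased fruit higher and 33.3% with it lower, so separation of the groups was not particular to the 2-fold genes. With control replicate 3 set aside these shares were 74.7%, 37.1% and 37.6%, and with fewer libraries such a share cannot fall.

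The 2-fold changes were more numerous when control replicate 3 was left out. The counts were then 864 genes higher (5.21%) and 716 lower (4.32%). Of the 757 genes that rose with all 6 libraries, 753 were also called without this library, which is 99.5% of the first list and 87.2% of the second. For genes that fell, 661 were called both ways, out of 668 with this library and 716 without it. None of the 757 and 668 genes called with all 6 libraries changed sign without control replicate 3. At an adjusted p alone, 4848 genes (29.2%) were higher and 4873 (29.4%) lower without this library, together 58.6% and fewer than with it. Leaving out disease replicate 3 instead also raised the 2-fold counts, to 838 higher and 699 lower. Leaving out any other single Jinlan library lowered both 2-fold counts.

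Among changes of at least 4-fold, decreases outnumbered increases. In diseased fruit 68 genes rose (0.41% of those tested) and 106 fell (0.639%) by at least 4-fold, and 8 rose and 12 fell by at least 8-fold. Leaving out control replicate 3 gave 103 higher and 122 lower at 4-fold, and 16 higher and 20 lower at 8-fold. Without disease replicate 2, 19 genes were lower at 8-fold. Whether increases and decreases differed in size was not tested.

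The space left between the groups was also counted, a number that can only stay or rise when a library is left out. The lowest diseased library was at least 2-fold above the highest control library for 319 genes, and the highest diseased library was at least 2-fold below the lowest control library for 399 genes. At 4-fold these numbers were 8 genes higher and 61 lower. Leaving out control replicate 3 raised them to 540 higher and 517 lower at 2-fold, which turned the balance, and to 56 higher and 80 lower at 4-fold. Without disease replicate 3 there were 485 genes higher at 2-fold and 15 at 4-fold.

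**Figure D2:**
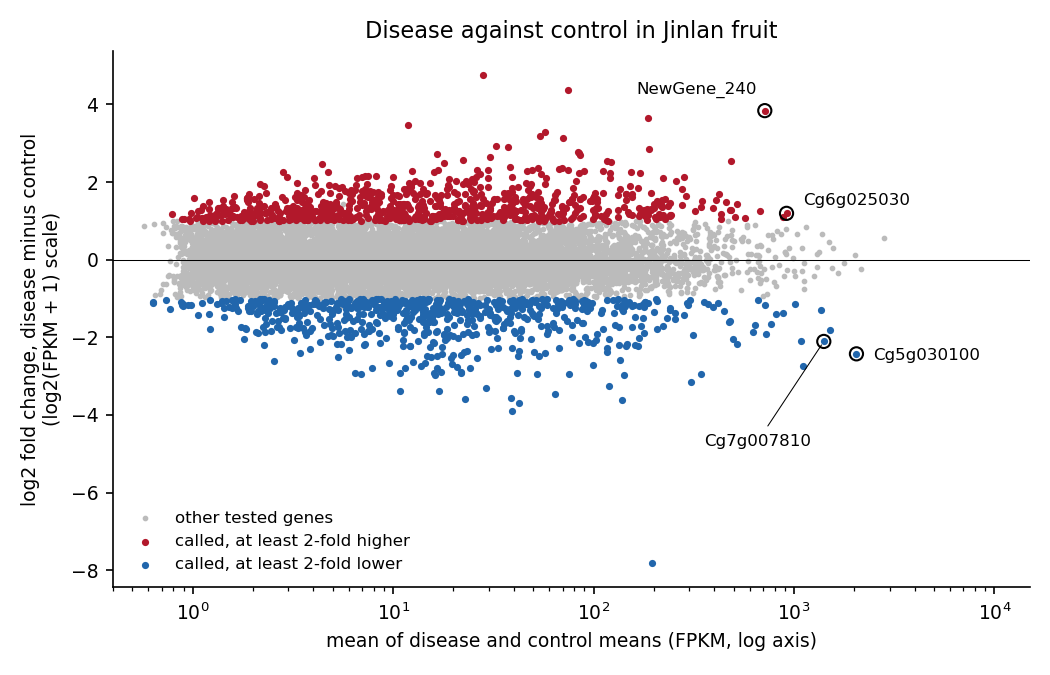
Log2 fold change of diseased over control Jinlan fruit, on the log2(FPKM + 1) scale, against the mean of the disease and control means in FPKM (log axis), for 16579 genes. Red points are the 757 genes called at least 2-fold higher, blue points the 668 called at least 2-fold lower, grey points all others, and circles mark the 4 named genes, which lie at the right end of the range.

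Changes of at least 2-fold were most frequent among abundant transcripts, and decreases outnumbered increases in the highest band. Genes were grouped by the mean of the diseased and control means, which treats both groups alike. Among the 100 genes at 500 FPKM or more, 7 rose and 16 fell at 2-fold. Among the 1009 genes between 100 and 500 FPKM, 91 rose (9.02%) and 72 fell (7.14%). In the 4761 genes between 20 and 100 FPKM the shares were 4.62% higher and 4.07% lower, and in the 6316 genes between 5 and 20 FPKM they were 3.55% and 3.78%. Below 5 FPKM more genes rose than fell, with 135 higher and 107 lower among the 2699 genes from 2 to 5 FPKM, and 80 higher and 40 lower among the 1694 genes below 2 FPKM. The pseudocount of 1 lowers the fold change of genes with such low values. The highest band still had 7 genes higher and 16 lower without control replicate 3, and the band from 100 to 500 FPKM had 107 and 73.

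Some of the most abundant transcripts of control fruit were at least 2-fold lower in diseased fruit. Of the 20 genes with the highest mean FPKM in control fruit, 8 were called at least 2-fold lower in diseased fruit and none at least 2-fold higher. Another 6 were called lower and 3 higher by less than 2-fold, and 3 were not called. The 8 genes lay between 263 and 1373 FPKM in the diseased libraries and between 1161 and 3717 FPKM in the control libraries. None of the 8 had overlap within the gene, which the choice at 2-fold all but sets, as it held for 667 of the 668 genes called 2-fold lower. Their log2 fold changes were -2.74 to -1.15. Disease replicate 3 was the highest diseased library for all 8, and control replicate 3 was the lowest control library for 7 of them. In sum these 8 genes made up 0.656%, 0.688% and 1.09% of the FPKM of diseased replicates 1 to 3, against 2.93%, 2.94% and 2.67% of the FPKM of control replicates 1 to 3. A gene ranked by its control level is more likely to be seen falling than rising, so the ranking by diseased fruit is given beside it. Of the 20 genes highest in diseased fruit, 3 were called at least 2-fold higher and none lower, 9 were called higher and 3 lower by less than 2-fold, and 5 were not called. Both lists of 20 shared 9 genes. Ranked without control replicate 3, 8 of the 20 highest control genes were likewise lower at 2-fold and none higher.

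**Figure D3:**
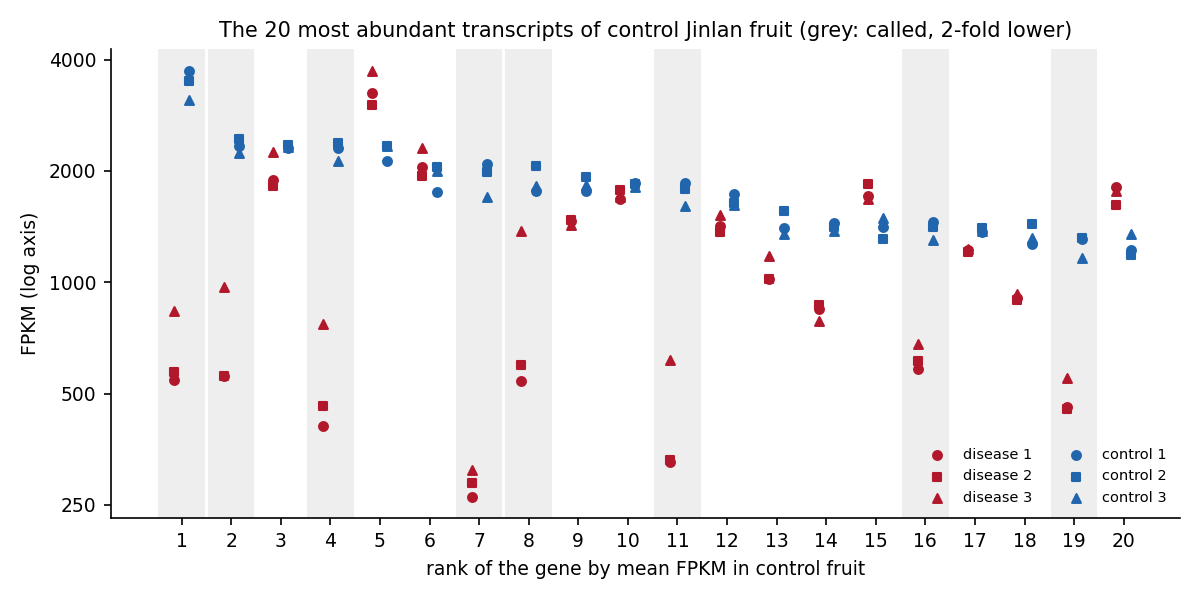
FPKM (log axis) in each Jinlan library of the 20 genes with the highest mean in control fruit, in rank order. Red points are diseased libraries, blue points control libraries and the marker shape gives the replicate; in the 8 grey columns, called at least 2-fold lower, diseased libraries lie below all control libraries and the triangle of disease replicate 3 is the highest red point.

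The most abundant genes of each library took a smaller share of its FPKM in diseased than in control fruit. The 20 most abundant genes of each library took 5.52%, 5.54% and 5.68% of its FPKM in diseased replicates 1 to 3, against 6.36%, 6.52% and 6.25% in control replicates 1 to 3. The 100 most abundant took 15.7%, 15.8% and 16.1% in diseased fruit, against 17.2%, 17.5% and 17.2% in control fruit. The groups did not overlap in either measure. An exact permutation test of 3 against 3 libraries cannot give a two-sided p below 0.1, and none is given.

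The named genes were chosen among genes called at 2-fold without overlap of the groups, so their lack of overlap was set by the choice. Among genes called at 2-fold without overlap, the largest fall in FPKM was that of Cg5g030100, the most abundant transcript of all 3 control libraries. Its level was 544, 572 and 839 FPKM in diseased replicates 1 to 3, against 3717, 3502 and 3119 FPKM in control replicates 1 to 3. The means were 652 ± 162 FPKM in diseased fruit and 3446 ± 303 FPKM in control fruit (SD, n = 3 each). The lowest control library was well above the highest diseased library, and both replicates numbered 3 lay nearest to the opposite group. The log2 fold change was -2.43 (SE 0.16, limma, adjusted p = 1.01e-05), and -2.50 without control replicate 3. By mean level the gene ranked 65 in diseased fruit and 1 in control fruit.

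Cg7g007810 had the next largest fall among them. It was at 408, 461 and 772 FPKM in diseased replicates 1 to 3, against 2311, 2373 and 2123 FPKM in control replicates 1 to 3. Disease replicate 3 stood apart from the other diseased libraries by more than the control libraries differed among themselves. The log2 fold change was -2.11 (SE 0.21, adjusted p = 6.24e-05), and -2.15 without control replicate 3. In rank it was 95 in diseased fruit and 4 in control fruit.

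Among genes called at 2-fold without overlap, NewGene_240 had the largest rise in FPKM. It is an identifier of a separate number series whose origin the table does not state. It was at 1315, 1522 and 1089 FPKM in diseased replicates 1 to 3, against 69.5, 40.7 and 252 FPKM in control replicates 1 to 3. Control replicate 3 was several times above the other control libraries. Disease replicate 3 was the lowest diseased library. The mean was 1309 ± 217 FPKM in diseased fruit and 121 ± 115 FPKM in control fruit (SD, n = 3 each), a ratio of means of 10.8. That ratio was 23.8 without control replicate 3. The log2 fold change was 3.84 (SE 0.55, adjusted p = 0.000446) with all 6 libraries and 4.58 (SE 0.22, adjusted p = 6.54e-06) without control replicate 3. It ranked 12, 9 and 22 in diseased replicates 1 to 3, against 1725, 3019 and 309 in control replicates 1 to 3.

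Cg6g025030, with the next largest rise among genes called at 2-fold without overlap, rose less in ratio but from a high level. It was at 1224, 1304 and 1298 FPKM in diseased replicates 1 to 3, against 495, 537 and 648 FPKM in control replicates 1 to 3. Control replicate 3 was again the control library nearest to diseased fruit. The log2 fold change was 1.19 (SE 0.10, adjusted p = 2.82e-05), and 1.30 without control replicate 3.

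**Figure D4:**
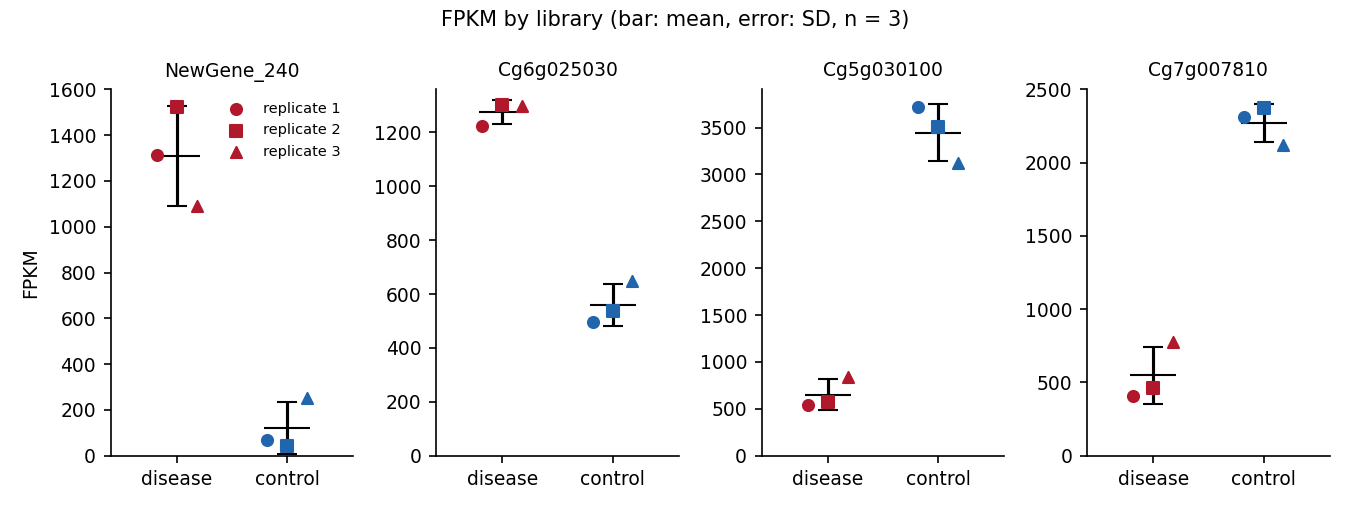
FPKM of the 2 genes with the largest rise and the 2 with the largest fall in mean FPKM among genes called at least 2-fold in Jinlan fruit; points are libraries with the marker shape giving the replicate, horizontal lines are group means and error bars are SDs (n = 3). All 4 genes are free of overlap, which was a condition of their choice, and in NewGene_240 control replicate 3 (252 FPKM) lies above the other control libraries.

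The genes with the next largest differences in FPKM were taken from the same list of genes called at 2-fold without overlap, which sets the smallest fold they can have. The 18 genes that followed the named pair among rises had mean levels of 339 to 1206 FPKM in diseased fruit and 33.7 to 562 FPKM in control fruit, with log2 fold changes of 1.07 to 3.65. The 18 that followed among falls had 61.3 to 837 FPKM in diseased fruit and 549 to 2338 FPKM in control fruit, with log2 fold changes of -3.16 to -1.15. Control replicate 3 was the control library nearest to diseased fruit in 18 of the 18 rising and 14 of the 18 falling genes. Disease replicate 3 was the diseased library nearest to control fruit in 16 of the rising and all 18 of the falling genes.

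This position of both replicates 3 was seen across the 2-fold genes as a whole. Among the 757 genes that rose, disease replicate 3 was the lowest diseased library for 542 (71.6%), and control replicate 3 the highest control library for 696 (91.9%). Among the 668 that fell, disease replicate 3 was the highest diseased library for 336 (50.3%) and control replicate 3 the lowest control library for 540 (80.8%). Control replicate 2 took that place for 18 of the 757 and 53 of the 668. In all 68 genes at least 4-fold higher, control replicate 3 was the highest control library. Among genes called by less than 2-fold the shares for control replicate 3 were lower, at 46.4% of those higher and 63.5% of those lower.

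Few genes set control replicate 3 apart from its group by a large factor. It differed at least 1.5-fold from both other control libraries, on the log2(FPKM + 1) scale, at 117 genes, and at 111 of them (94.9%) it lay on the side of diseased fruit. Disease replicate 3 differed in this way at 149 genes, 127 of them (85.2%) towards control fruit. For disease replicates 1 and 2 the numbers were 32 and 45 genes, with 59.4% and 53.3% towards control fruit. For control replicates 1 and 2 they were 57 and 60 genes, 37 and 30 of them towards diseased fruit. The labels give no batch, date or severity for any library, and why these libraries lie between the groups was not tested.

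**Figure D5:**
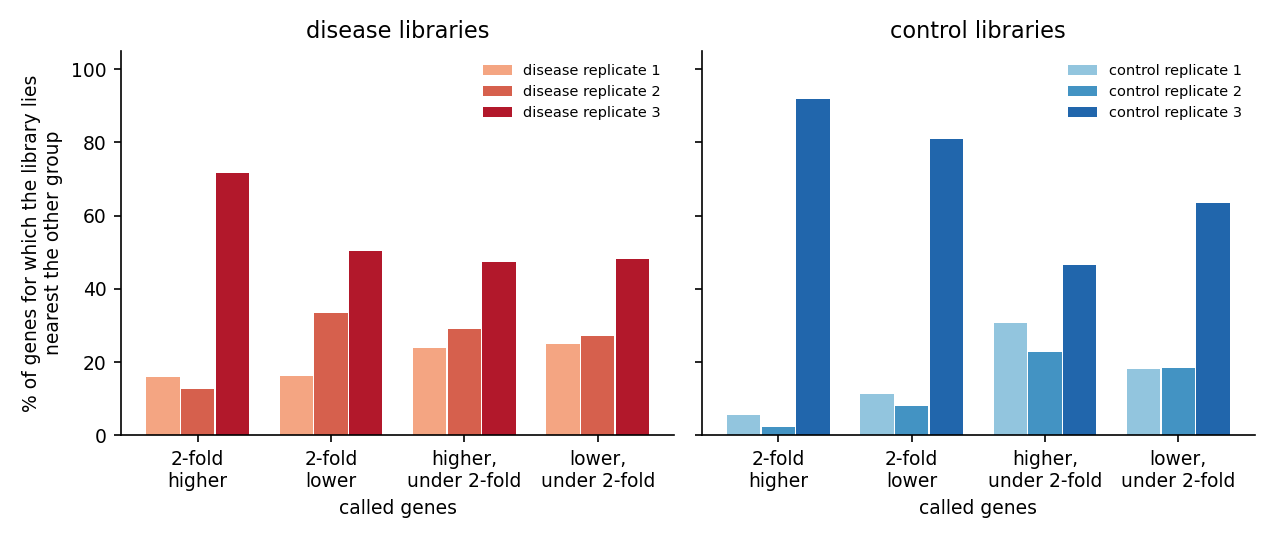
Share of called genes for which each diseased library (left) or control library (right) was the one nearest to the other group, for genes at least 2-fold higher or lower and genes called by less than 2-fold. Control replicate 3 reaches 91.9% of the 2-fold higher and 80.8% of the 2-fold lower genes, and disease replicate 3 reaches 71.6% and 50.3%.

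Few of the 16579 tested genes crossed 1 FPKM between the groups in all libraries, by counts that likewise cannot fall when a library is left out. For 227 genes all 3 diseased libraries were at 1 FPKM or more and all 3 control libraries below 1 FPKM, and for 194 genes the reverse held. These genes passed the filter only through the group where they were higher, and values just above and just below 1 FPKM also count. With at least 2 FPKM asked of the higher group, the numbers were 32 genes higher and 42 lower in diseased fruit. The 2 FPKM numbers became 69 higher and 59 lower without control replicate 3, and 60 were higher without disease replicate 3. With at least 5 FPKM asked of the higher group no gene rose from below 1 FPKM and 4 fell below it. Leaving out control replicate 3 gave 5 and 6 such genes, without disease replicate 3 there were 2 that rose, and without disease replicate 2 there were 8 that fell.

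Genes with adjacent identifiers were examined for changes in the same direction. Within the number series Cg1 to Cg9, 13220 tested genes had at least 1 adjacent identifier that was also tested. Of the 571 such genes that rose at 2-fold, 133 (23.3%) had an adjacent gene that also rose at 2-fold, against 6.20% of all 13220 genes. Of the 520 that fell, 96 (18.5%) had an adjacent gene that also fell, against 5.67% of all. Among 10052 adjacent pairs, both genes rose in 70, both fell in 52 and 1 rose while the other fell in 26. The longest uninterrupted stretches held 3 genes that rose and 4 that fell. Leaving out control replicate 3, the shares were 24.0% for rising and 19.6% for falling genes. The sources used here do not say whether adjacent identifiers are near-identical copies that share reads, and this was not tested.

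To ask which of these changes differed from those of the other cultivar, the Jinlan change was tested against the Jinsha change as an interaction in all 12 libraries. The difference was called for 59.2% of the 16579 genes, 5242 with a higher and 4567 with a lower change in Jinlan than in Jinsha. Without Jinlan control replicate 3 these numbers were 5007 and 4529. With all 12 libraries the difference was called for 703 of the 757 genes with a 2-fold rise in Jinlan. For those with a 2-fold fall it was called for 494 of 668. The choice of genes by the Jinlan change partly sets these shares. The genes that rose in Jinlan had a median log2 fold change of 1.31 in Jinlan and -0.13 in Jinsha. Those that fell had -1.34 in Jinlan and -0.84 in Jinsha. The median over all tested genes was 0.01 in Jinlan and -0.01 in Jinsha.

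The abundant genes chosen by their Jinlan change were also followed in Jinsha. Of the 8 abundant control genes that fell in Jinlan, 7 were also called at least 2-fold lower in Jinsha, and the interaction was called for 3 of them, each with the larger fall in Jinlan. Of the 18 genes that followed the named pair among rises, none was called at least 2-fold higher in Jinsha, 2 were called higher there at any fold and 7 lower, and the interaction was called for all 18. Of the 18 that followed among falls, 12 were called at least 2-fold lower in Jinsha, 16 were called lower there at any fold and 1 higher, and the interaction was called for 10. Over all 16579 tested genes the interaction was called for 59.2%, a share that 3 of 8 and 10 of 18 do not exceed. The choice by the Jinlan change partly sets all these interaction counts. In the whole 2-fold lists, 50 of the 757 rising and 282 of the 668 falling genes were called at least 2-fold in the same direction in Jinsha. The share of all tested genes called in Jinsha is not given here, so these counts have no background beside them. Whether rises and falls differed in their Jinsha change was not tested.

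NewGene_240 was at 132, 145 and 135 FPKM in diseased Jinsha fruit, against 112, 115 and 101 FPKM in control Jinsha fruit. All 6 were far below diseased Jinlan fruit. They lay near the mean of the 3 control Jinlan libraries, 121 FPKM, but above control replicates 1 and 2, whose mean was 55.1 FPKM. The interaction was 3.52 on the log2 scale (SE 0.63, adjusted p = 0.000379), and 4.26 without Jinlan control replicate 3. Cg6g025030 was lower in diseased than in control Jinsha fruit, at 460 ± 42.3 FPKM and 679 ± 71.0 FPKM (SD, n = 3 each), and its interaction was 1.76 (SE 0.15, adjusted p = 9.26e-07). Cg5g030100 also fell in Jinsha, to 1179 ± 18.7 FPKM in diseased fruit, against 3356 ± 242 FPKM in control fruit, and its interaction of -0.92 (SE 0.20, adjusted p = 0.00144) marks the larger fall in Jinlan. Cg7g007810 was at 365 ± 7.14 FPKM in diseased and 1996 ± 196 FPKM in control Jinsha fruit. Its interaction, 0.34 (SE 0.25, adjusted p = 0.258), missed the threshold, which does not show that the falls were equal. Without Jinlan control replicate 3 the interaction was 1.86 for Cg6g025030, -0.99 for Cg5g030100 and 0.29 for Cg7g007810.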

How the data were processed

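The authors deposited FPKM values in 1 table, without counts. Aligner, quantification tool, genome build and annotation: not given in the sources used here. Libraries were grouped by the labels, and all 12 columns matched a library title. FPKM values were transformed to log2(FPKM + 1), and fold changes are on that scale, which understates changes of low genes. Genes that reached 1 FPKM in 3 or more of the 6 Jinlan libraries were tested in R 4.3.3 with limma 3.58.1, its variance moderated along a mean-variance trend, on these 6 libraries, and with 4 group means on all 12 for the difference between cultivars. Benjamini-Hochberg adjustment ran over all tested genes, and "called" means an adjusted p below 0.05. The fit was also run on simulated data with independent noise and few changed genes. Most genes were called in the real data, so that run does not vouch for the calls here.

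Named genes were the 2 with the largest rise and the 2 with the largest fall in mean FPKM among genes called at 2-fold without overlap of the groups. They and the comparisons were chosen with earlier results of these data known. Lists by gene function could not be used, because no identifier was matched to a name. Abundance bands, ranks, gaps, nearest replicates and adjacent identifiers were described after seeing the data. Alternatives were other pseudocounts, filters, scalings, library weights, variance models, a block on the replicate number, all 12 libraries in the fit, and leaving out each Jinlan library. Figures were drawn with matplotlib 3.10.9. Metabolite measurements were not analysed here.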

Additional observations from a re-analysis of the deposited data

Results flagged for a closer look

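The disease effect differed between the cultivars by the interaction test for 9809 of the 16579 tested genes (59.2%). Among the 4 named genes it differed for 3. The log2 difference, Jinlan minus Jinsha, was 3.52 for NewGene_240, 1.76 for Cg6g025030 and -0.92 for Cg5g030100. These genes were chosen by the size of their Jinlan change, and that change is a term of the difference, so their share adds no support.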

How the results depend on the processing

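Counts of genes called at an adjusted p and at 2-fold stayed within 1.5 times of their values under all alternatives but 1. With a pseudocount of 5, 377 genes rose and 366 fell at 2-fold with disease in Jinlan, and 722 genes had a higher and 383 a lower change in Jinlan than in Jinsha at 2-fold. Leaving out each Jinlan library in turn gave 4501 to 5030 genes called higher and 4332 to 4873 lower, and 656 to 864 higher and 642 to 716 lower at 2-fold. The 4 named genes kept their direction and their call in Jinlan under all 17 alternatives (highest adjusted p = 0.00902), and the cultivar difference was called for the same 3 of them under all 16 alternatives run for it. Scaling moved the median log2 fold change of all genes by less than 0.1 (0.012 unscaled, 0.0035 with median-ratio scaling, 0.0019 with quantile normalization), and the share of called genes that were higher was 51.2%, 49.9% and 49.9%. With the replicate number as a block, 4878 genes were higher and 4609 lower, and 757 and 669 at 2-fold. The deviations of same-numbered libraries had Pearson's r over genes of -0.09, -0.15 and -0.18 for replicates 1 to 3. For differently numbered libraries r was -0.08 to 0.19. Deviations from a group mean sum to 0 over its 3 libraries, so these values cannot decide whether the numbers mark pairs. No pairs were taken in the main fit. Without counts, the depth behind low values cannot be given.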

Other observations

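By number series of the identifiers, the share of tested genes that rose at 2-fold in diseased Jinlan fruit was 3.57% to 5.17% in the series Cg1 to Cg9, 5.52% among 979 tested NewGene identifiers and 7.53% among 425 tested CgUn identifiers. The share that fell was 3.25% to 4.78% in Cg1 to Cg9, 3.88% among NewGene and 3.76% among CgUn identifiers. In the series CgUn, 20.5% of the identifiers passed the filter, and in NewGene 35.7%. No test was made of these shares. Without Jinlan control replicate 3, 37 CgUn genes rose and 17 fell, against 32 and 16 with it.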
